A study of Arabidopsis thaliana with 28 samples.

Results

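The elongation zone of the Arabidopsis root tip was compared with the meristematic zone in roots kept on hydrogen peroxide (H2O2), and the same comparison on control medium served as its background. The comparison was defined by the labels alone: it takes the 12 arrays of roots on 1 mM H2O2, 6 from each zone, out of 28 arrays in the series. The others were 12 arrays of roots on control medium at the same times and 4 of roots at 0 h. All plants were Arabidopsis thaliana of the accession Columbia-0, as seedlings 5 days old, and no group carried a mutation or a transgene. Seedlings were moved to Murashige and Skoog (MS) medium with 1 mM H2O2 for 1, 3 or 6 h, or to MS medium without it, and the root tips were then cut by hand with a razor blade into the 2 zones. Each group of zone, medium and time held 2 biological replicates of 30 pooled roots, so every p-value rests on the spread between 2 pools per group, and the number of arrays limits the precision. RNA was amplified in 2 cycles and hybridised to Affymetrix ATH1 arrays, which read 1 signal per probe set.

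Cells of the root tip divide in the meristematic zone and then stop dividing and expand many times in length in the elongation zone, where the wall is loosened and new wall material is laid down. Hydrogen peroxide and superoxide are distributed unevenly along this axis, and their balance is part of the switch from division to expansion. UPBEAT1 (UPB1), a bHLH transcription factor of the elongation zone, takes part in that switch by repressing genes of secreted class III peroxidases, enzymes that use H2O2 to oxidise or loosen the wall.

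The zone difference is given as the mean of log2(signal + 16) in the elongation zone minus that in the meristematic zone, averaged over 1, 3 and 6 h, with its SE. A positive value means a higher signal in the elongation zone. The added 16 shrinks the difference of dim genes. Called means an adjusted p under 0.05 in limma's moderated test, where Benjamini-Hochberg adjustment covered all 22746 probe sets. The pieces of root hold mixed cells, so fewer cells of a type and less RNA per cell cannot be told apart. Probe sets can also bind transcripts of close relatives, which matters for large families.

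Replicate arrays on H2O2 had a Pearson r of 0.9822 to 0.9867 over all probe sets, and the median signal per array lay between 49.3 and 75.9. The lowest correlation of any group, 0.9649, was that of the elongation zone on control medium at 1 h. There the control arrays numbered 1 stood apart from the other arrays of that time on the second principal component, at 6.9 in the elongation and -2.4 in the meristematic zone against -39.4 to -24.8 for the other arrays of 1 h. No H2O2 array was concerned. Counts of calls that use the control arrays are also given without these 2, called outlying below. So are the values named below that they move most. With 2 arrays per group the values cannot say which array of a pair is off, and the choice was made after seeing them. The control arrays of 1 h numbered 2 were not left out together. The labelled zones were checked against their markers. The 5 measured of 9 elongation zone markers (UPB1, XTH18, XTH19, XTH21 and EXPB1) were higher in the elongation zone on H2O2, and the 4 measured of 15 meristematic markers (BBM, AUR1, AUR2 and AUR3) were lower there. None of the markers listed for root cap, endodermis, xylem and phloem was paired with a probe set in the annotation used here, so these cell types were not checked.

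The first question was which genes differ between the zones in roots on H2O2. The zones differed at 12842 of 22746 probe sets (56.5% called), of which 5367 (23.6%) were higher in the elongation zone and 7475 (32.9%) lower there. The median difference over all probe sets was -0.07. Most called differences were under 1 on the log2 scale. A difference of at least 1 was reached by 2170 of those higher and 3504 of those lower, and one of at least 4 by 90 and 21. For 3685 probe sets (16.2%) all 6 elongation arrays lay above all 6 meristematic arrays, and for 5503 (24.2%) all lay below, 40.4% together. The ratio of the 3' to the 5' signal of the GAPDH control, a measure of how far the labelled RNA reaches toward the 5' end, also moved with the zone. Its log2 was -0.00833 ± 0.15 (SD, n = 6) in the elongation and 0.54 ± 0.127 (n = 6) in the meristematic zone, with an exact permutation p of 0.00926 within times, the smallest that 216 arrangements can give. The actin control did not separate the zones (4 ± 0.168 and 4.05 ± 0.195, exact permutation p = 0.676). The part of RNA quality in the zone differences was not tested.

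UPB1 and genes of cell expansion stood at one end. UPB1 had signals from 824 to 1804 (median 1297) on the 6 elongation arrays and from 22.7 to 43.3 (median 34.7) on the 6 meristematic arrays. The 2 zones did not overlap, and the difference was 4.71 ± 0.27 (adjusted p = 5.78e-12). On control medium it was 4.55.

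Wall-remodelling enzymes showed the same order of size. XTH21, a xyloglucan endotransglucosylase that cuts and rejoins wall polymers, ranged from 466 to 743 (median 486) in the elongation zone and from 0.641 to 3.46 in the meristematic zone, where it was near the bottom of the signal range. Its difference was 5.01 ± 0.14, and that of its relative XTH18 was 4.74 ± 0.21. EXPB1, a beta-expansin, ranged from 1538 to 3128 (median 2887) against 94.5 to 235 (median 172), which gave 3.89 ± 0.13. In each of these markers every elongation array was above every meristematic array. Genes taken as extremes of the zone difference were required to show this, so it is no further result for those. Among the 29 measured members of the expansin and xyloglucan hydrolase families 14 were higher, 3 lower and 12 were not called, with a median of 0.39 against -0.07 for all probe sets, of which 23.6% were higher and 32.9% lower. After median centring, a shift of every array to the same median, 22 were higher and 3 lower. Of all 22746 probe sets 10098 were then higher and 5232 lower. XTH19 (3.39), XTH16 (2.94) and EXPA8 (2.88) were also higher. The family did not move as a block: EXPA4 (-3.52 ± 0.20), EXPA15 (-2.23) and EXPA20 (-1.54) were lower in the elongation zone.

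Genes for the synthesis or acetylation of wall polysaccharides, called wall polysaccharide synthesis below, were higher more often than lower. Of 37 genes 23 were higher and 4 lower, with a median of 0.72. Of all probe sets 23.6% were higher and 32.9% lower. Most of the 37 are TBL genes, and none is a cellulose synthase of the CESA family. CSLA03, a synthase of glucomannan chains, ranged from 681 to 1099 (median 891) against 29.4 to 58.8 (median 39.7), a difference of 4.00 ± 0.20. TBL21 (3.96 ± 0.20), TBL38 (3.21 ± 0.21) and TBL19 (3.13 ± 0.21) belong to the TRICHOME BIREFRINGENCE-LIKE family, whose studied members acetylate wall polymers. Of 7 tubulins, the subunits of microtubules that guide cellulose deposition, 5 were higher and 1 lower (median 0.83). TUB1 ranged from 3572 to 5101 (median 4014) against 253 to 770 (median 475), whereas TUB7 was the lower member at -0.63 ± 0.09. Both zones were far above the dim range for TUB1, and its arrays did not overlap (3.13 ± 0.15).

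Some secreted signalling peptides and regulators were found at the same end. RALFL27, of the RALF family of secreted peptides, had a difference of 4.32 ± 0.17, and RALFL33 of 2.92 ± 0.12. Of the 10 measured RALF-like peptides 4 were higher, 1 was lower (RALFL34, -0.52 ± 0.18) and 5 were not called. Of all probe sets 23.6% were higher and 32.9% lower. LEP, an AP2/ERF transcription factor, stood at 3.49 ± 0.13. BIM1, a bHLH partner in brassinosteroid signalling, was at 3.32 ± 0.13. LCR68, a small cysteine-rich protein, was higher by 4.12 ± 0.19, and the plastid aspartic protease NANA by 3.66 ± 0.14.

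**Figure D1:**
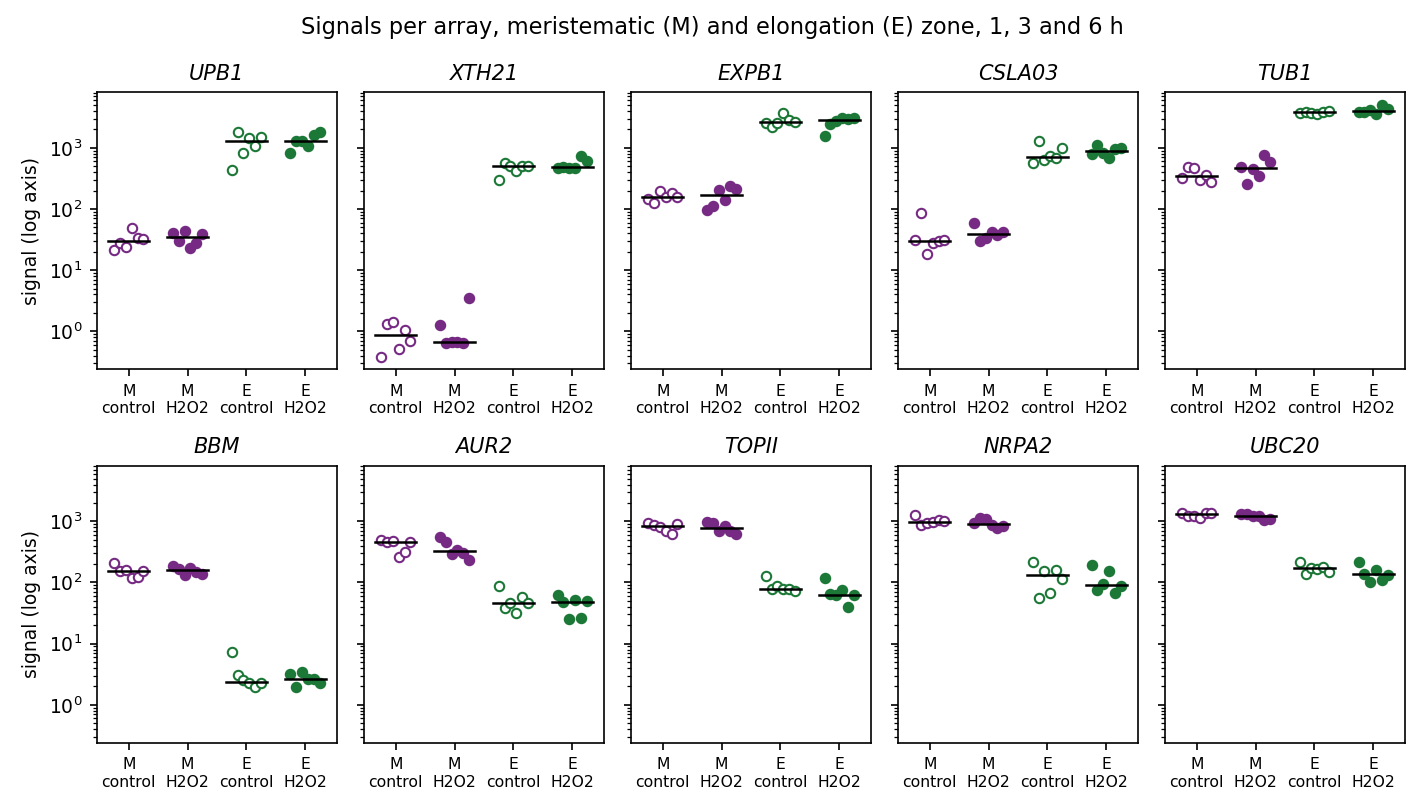
Signal of 10 genes on each array (log axis), by zone (M, meristematic, purple; E, elongation, green) and medium (open circles, control; filled circles, H2O2), with 6 arrays per column in the order of 1, 3 and 6 h and a black line at the median. In the upper row the E arrays lie above the M arrays on both media, and in the lower row they lie below.

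The highest zone differences on H2O2 were ranked among called genes whose zones did not overlap. The top 12 were mostly loci without a name of their own in the gene table used here. AT3G01190 led them on the scale with 16 added, from 5561 to 10258 (median 9508) in the elongation zone and from 18.5 to 367 (median 48.6) in the meristematic zone, a difference of 6.84 ± 0.38. AT5G17820 (6.32 ± 0.34), AT2G30930 (6.03 ± 0.21) and AT3G28550 (5.43 ± 0.22) followed. The order depends on the added constant, since with 1 added AT3G28550 (8.22) and XTH21 (8.03), both near the bottom of the signal range in the meristematic zone, stood above AT3G01190. At the other end AT1G50060 ranged from 0.737 to 12.2 in the elongation zone and from 775 to 2206 (median 1592) in the meristematic zone, a difference of -6.35 ± 0.41. AT3G19430 (-5.55 ± 0.36), AT1G52070 (-5.07 ± 0.47) and AT1G56680 (-4.92 ± 0.17) came next. The named genes at that end were ATGSTF13, a glutathione transferase of the phi class (-4.47 ± 0.21), and sks16, a relative of SKU5 (-4.43 ± 0.34).

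Genes of cell division were at the meristematic end. BBM, an AP2 transcription factor of the PLETHORA group that maintains the root meristem, ranged from 131 to 186 (median 158) in the meristematic zone and from 1.95 to 3.41 in the elongation zone, with a difference of -3.20 ± 0.12. AUR2, an Aurora kinase of mitosis, ranged from 231 to 556 (median 323) against 25.4 to 63.6 (median 48.8), with -2.64 ± 0.19. TOPII, the topoisomerase that untangles replicated DNA, was at -3.27 ± 0.14. No elongation array reached the lowest meristematic array for any of these genes. Over all probe sets 32.9% were lower and 23.6% higher. Of 12 genes of mitosis and cytokinesis 9 were lower and 2 higher, with a median of -2.22. The lower ones included 3xHMG-box2 (-3.73 ± 0.20) and 3xHMG-box1 (-3.25 ± 0.21), which bind mitotic chromosomes, and BUBR1 (-2.94 ± 0.24), of the spindle checkpoint. The higher ones were the microtubule-binding protein ATMAP65-6 (2.19) and KEU (0.74), which acts in vesicle fusion at the cell plate. All 4 DNA replication genes were lower, from the MCM helicase subunit PRL at -1.96 ± 0.18 to the polymerase alpha subunit ICU2 at -1.39 ± 0.14. Of 8 histones 6 were lower (median -0.62), among them the H2B gene HTB1 (-1.52 ± 0.14) and the centromeric H3 gene HTR12 (-1.03 ± 0.13).

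The machinery that makes ribosomes and transcripts was lower in the elongation zone as well. Of all probe sets 32.9% were lower there and 23.6% higher. All 12 measured subunits of nuclear RNA polymerases were lower, with a median of -1.98. NRPA2, of RNA polymerase I, which transcribes ribosomal RNA, ranged from 66.3 to 192 (median 91.3) against 769 to 1130 (median 916), with -2.98 ± 0.24. NRPA1 (-2.77 ± 0.21), of the same enzyme, and NRPC2 (-2.56 ± 0.15), of RNA polymerase III, were close to it, and NRPB9A, of RNA polymerase II, was the least lowered at -0.93. All 5 genes of ribosome biogenesis were lower (median -2.68). AT5G14520, the Arabidopsis PESCADILLO gene, ranged from 365 to 1142 (median 569) against 4721 to 6016 (median 5498), with -3.06 ± 0.19. The other 4 were RBL (-2.92), IMP4 (-2.68), RRP41L (-2.57) and RRP41 (-1.92). Of 69 genes of the plastid genome 42 were lower and none higher, with a median of -0.53, led by the ribosomal protein genes rpl22 (-1.46 ± 0.16) and rps3 (-1.28 ± 0.16). The plastid list moved with the scaling, since 23 were lower and 2 higher after every array was shifted to a common median. Of all 22746 probe sets 5232 were then lower and 10098 higher.

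**Figure D2:**
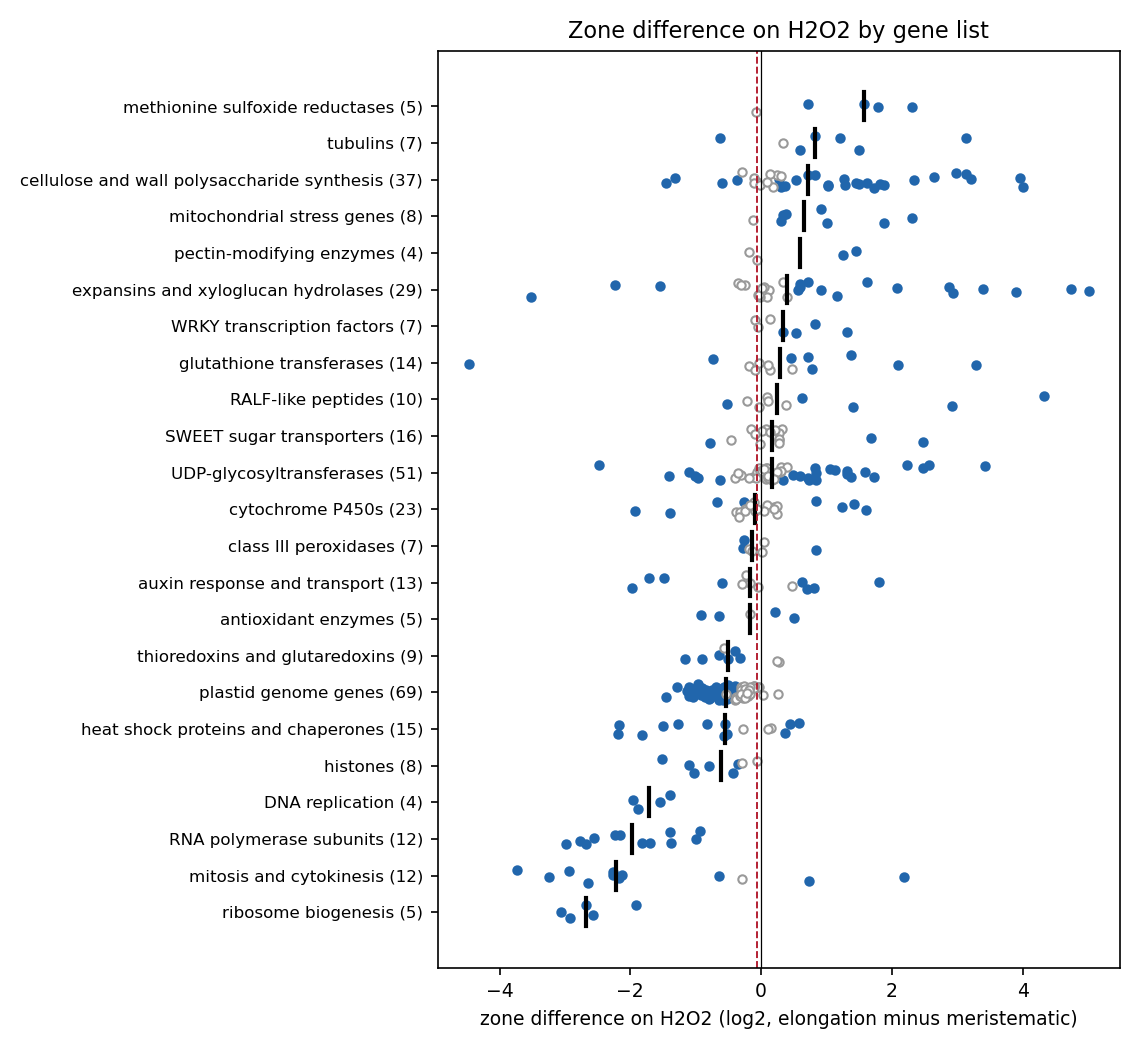
Zone difference on H2O2 (log2, elongation minus meristematic) of each member of the gene lists with at least 4 measured genes, whose number is in parentheses. Filled points were called (adjusted p under 0.05), open points were not, thick black bars are list medians, and the dashed red line is the median of all probe sets (-0.07). Medians run from -2.68 for ribosome biogenesis to 1.57 for methionine sulfoxide reductases.

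Genes that handle oxidants and their products were divided between the zones. The counts below stand beside 23.6% of all probe sets higher in the elongation zone and 32.9% lower. Of 5 methionine sulfoxide reductases, which repair oxidised methionine, 4 were higher in the elongation zone (median 1.57). MSRB5 ranged from 993 to 4486 (median 2649) against 134 to 966 (median 638), with 2.31 ± 0.18, and MSRB9 was at 1.57 ± 0.11. Only the lowest MSRB5 array of the elongation zone came near the highest of the meristematic zone. Of 8 measured genes for alternative NAD(P)H dehydrogenases and succinate dehydrogenase in mitochondria, 7 were higher (median 0.65), against 23.6% of all probe sets. NDB2 was at 2.30 ± 0.12 and SDH1-2 at 1.88 ± 0.11. NDB4 (0.38 ± 0.16) lost its call with 1 added to the signal, in a fit of only the arrays compared, and without the 1 h or 6 h arrays. Glutathione transferases, which conjugate glutathione to reactive compounds, had 6 members higher and 2 lower of 14. GSTU28 (3.28 ± 0.22) and GSTU27 (2.10 ± 0.12) were at one extreme and ATGSTF13 at the other. Among 51 UDP-glycosyltransferases, which attach sugars to small molecules, 19 were higher and 6 lower (median 0.16), from GT72B1 (3.42 ± 0.18) to UGT76C2 (-2.48 ± 0.12).

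The same shares of all probe sets, 32.9% lower and 23.6% higher, are the background of the next lists. Of 9 thioredoxins and glutaredoxins 6 were lower and none higher (median -0.51), including the glutaredoxin ROXY1 (-1.17 ± 0.21) and the plastid reductase NTRC (-0.91 ± 0.11). After median centring 2 of these 9 were lower and 2 higher, beside 5232 lower and 10098 higher of all 22746 probe sets. Of 15 heat shock proteins and chaperones 9 were lower and 3 higher (median -0.55), and after median centring 6 were lower and 4 higher (median -0.21). The lower ones included the co-chaperones Fes1C (-2.19 ± 0.15) and Fes1A (-1.50 ± 0.14) and the plastid chaperonin Cpn60beta2 (-2.18 ± 0.20). Of 5 antioxidant enzymes 2 were higher and 2 lower. The 2 glutathione reductases differed in sign: the cytosolic GR1 was higher (0.50 ± 0.10) and the organellar GR lower (-0.92 ± 0.09). PRXIIF, also higher (0.21 ± 0.08), was not called after quantile normalisation or without the 1 h arrays. Only 7 probe sets carried the name of a class III peroxidase in the gene table. Other members of this large family can stand among the loci without a name, so the 7 and their median do not describe the family. Of the 7 Prx37 was higher (0.84 ± 0.23, and not called without the 3 h arrays), PRXR1 (-0.28) and AT3G50990 (-0.26) were lower, and after median centring the last 2 turned to 0.06 and 0.09. AT3G50990 was not called in 15 of 23 alternatives, among them 9 of 12 that leave out 1 array.

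Among auxin genes the Aux/IAA genes IAA33 (-1.97 ± 0.21), IAA30 (-1.72 ± 0.16) and IAA20 (-1.48 ± 0.18) were lower and IAA18 (1.80 ± 0.21) was higher. On each side lay 4 of the 13 auxin genes, near the shares of all probe sets (23.6% higher and 32.9% lower). Of 23 cytochrome P450s 4 were higher and 4 lower, both under the shares of all probe sets. After median centring 9 were higher and 2 lower, beside 10098 higher and 5232 lower of all 22746 probe sets. The extremes were CYP84A4 at 1.61 ± 0.16 and CYP71B26 at -1.93 ± 0.15. Among 16 SWEET sugar transporters SWEET16 (2.48 ± 0.23) and SWEET17 (1.68 ± 0.15) were higher, SWEET2 (-0.78 ± 0.19) was lower and 13 were not called. Of 7 WRKY transcription factors 4 were higher (median 0.34), against 23.6% of all probe sets, with WRKY6 at 1.32 ± 0.12. Only 2 of the 7 were called without elongation 1 h replicate 2 or without meristematic 3 h replicate 2 on H2O2, where WRKY42 and WRKY53 lost their calls. The medians of the auxin genes (-0.17), antioxidant enzymes (-0.17), class III peroxidases (-0.14), cytochrome P450s (-0.09) and flavonoid genes (-0.11) turned positive after median centring. The other lists named here kept the sign of their median there. Both measured root hair markers were higher in the elongation zone, EXPA7 by 1.62 ± 0.21 and EXPA18 by 0.60 ± 0.13. Their summed signal was between 61.1 and 149 on the elongation arrays and between 19.2 and 35.2 on the meristematic arrays, and neither was at 0. The other 7 root hair markers were not measured, and the part of root hair cells in the zone difference was not tested.

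The split of calls depended on how arrays were scaled. Shifting every array to the same median moved the median zone difference of all probe sets on H2O2 from -0.07 to 0.28, and 10098 were then higher and 5232 lower. The lists at the ends kept their signs: the RNA polymerase list stood at -1.64, ribosome biogenesis at -2.33 and wall polysaccharide synthesis at 1.06. Lists nearer the middle changed more in their counts, with 32 UDP-glycosyltransferases higher and 4 lower and 11 SWEET transporters higher and 1 lower after median centring. Quantile normalisation gave 6280 higher and 6411 lower.

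Whether these differences hold under oxidative stress was asked by setting them beside the zone difference on control medium at the same times, from 12 other arrays. On control medium 12667 probe sets were called (55.7%), 5590 higher (24.6%) and 7077 lower (31.1%). In both media 4844 were called higher, which is 90.3% of those higher on H2O2 and 86.7% of those higher on control medium. Another 6563 were called lower in both, 87.8% and 92.7% of the 2 lists. All 1602 probe sets with a called difference of at least 2 on H2O2 were also called on control medium in the same direction. Without the 2 outlying control arrays 4786 and 6446 were called in both media.

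The sizes were close too. The median of the 4844 higher probe sets was 0.92 on H2O2 and 0.91 on control medium, and that of the 6563 lower ones was -1.06 and -1.01. Probe sets read on 1 array are not independent units, so a correlation over them is only a description. Across all probe sets the 2 zone differences, which come from separate arrays, correlated with r = 0.977. It was 0.942 at 1 h, 0.937 at 3 h and 0.934 at 6 h, and 0.977 over all times and 0.928 at 1 h without the 2 outlying control arrays. The list medians stood side by side in the same way, with -2.22 on H2O2 and -1.97 on control medium for mitosis, -1.98 and -1.99 for RNA polymerase subunits, -2.68 and -2.93 for ribosome biogenesis, and 0.72 and 0.65 for wall polysaccharide synthesis. Expansins and xyloglucan hydrolases had 0.39 on both. Without the outlying arrays the control medians of these 5 lists were -2.01, -2.06, -3.02, 0.66 and 0.30.

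**Figure D3:**
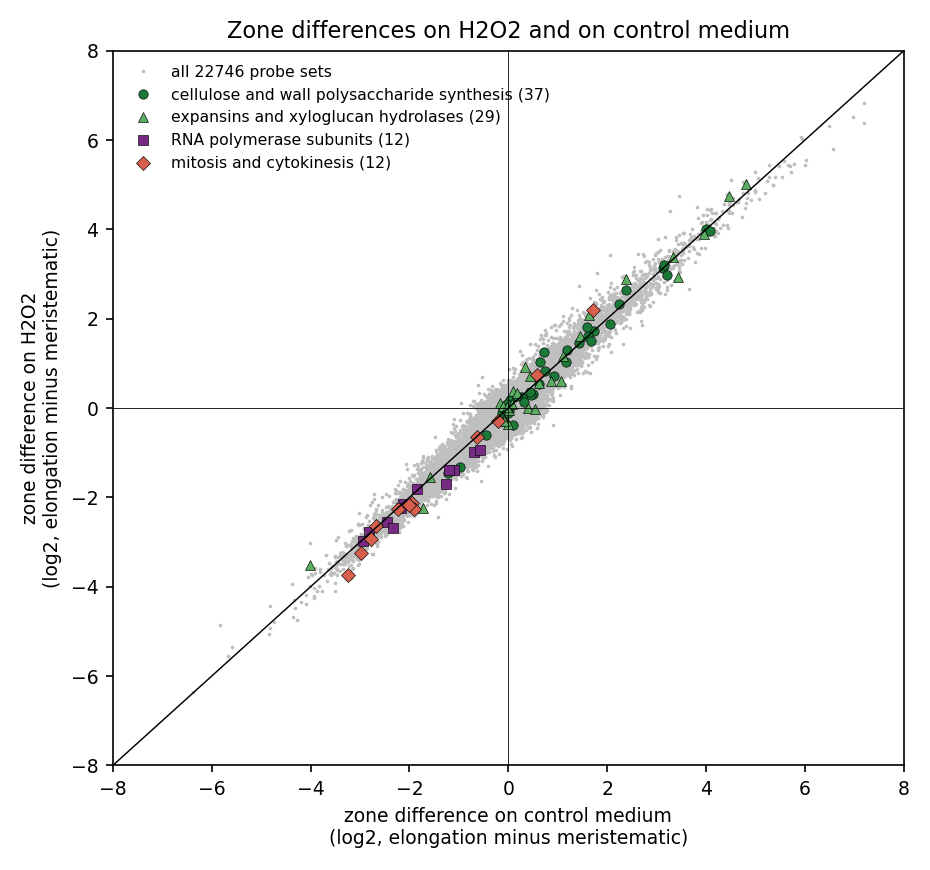
Zone difference on H2O2 against zone difference on control medium (log2, elongation minus meristematic, mean of 1, 3 and 6 h) for 22746 probe sets in grey, with 4 gene lists in colour and the line of equality in black. Points lie along the line over the whole range, with wall genes toward the upper right and RNA polymerase and mitotic genes toward the lower left.

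The difference between the 2 zone differences was then tested itself. Over 1, 3 and 6 h limma called 0 of 22746 probe sets (0% called), and 971 had an unadjusted p under 0.05. Arrays of both zones that share medium, time and replicate number are called a pool here. The labels do not say that they share roots. With roots of 1 pool treated as a correlated block 2 were called, with the replicate number as a term 0, and without the outlying control arrays 0. At 1 h 0 were called (728 with an unadjusted p under 0.05), and 0 without the outlying control arrays, at 3 h 0 (943) and at 6 h 1 (0.0044%, 1037). With the pool as a block 1 was called at 3 h. A difference in the mean over 1, 3 and 6 h that the test missed can still be bounded. The bound does not hold for single times, since opposite differences cancel in the mean. For AT5G53320, described below, the mean was 0.44, with -1.32 at 1 h and 1.84 at 6 h. The median SE was 0.21 for the mean and 0.36 at each single time. The constant added to the signal also shrinks the differences of dim probe sets toward the inside of the bound. Of the 12842 probe sets called between zones on H2O2, 12071 (94%) had a 95% interval of the difference between media that lay wholly within 1 log2 unit on either side of 0, close to the 93.5% of all probe sets for which this was so. For the other 771 it reached further, and for none did the whole interval lie beyond 1. Without the outlying control arrays the shares were 94.2% of 12972 called and 92.3% of all. For UPB1 the interval was -0.63 to 0.94, for XTH21 -0.22 to 0.62, for BBM -0.43 to 0.28 and for TOPII -0.67 to 0.13. Without the outlying arrays that of UPB1 was -0.76 to 0.47. No member of any gene list was called.

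The smallest p belonged to AT2G41810, a locus without a name in the gene table. In the elongation zone its signal ranged from 1821 to 2779 (median 2228) on H2O2 and had a median of 5248 on control medium. In the meristematic zone it ranged from 262 to 770 (median 523) on H2O2 and had a median of 2046 on control medium. The gene was thus lower on H2O2 in both zones, with a log2 difference between H2O2 and control medium of -1.10 ± 0.11 in the elongation zone (adjusted p = 1.4e-05; 0.506% of probe sets called) and of -2.05 ± 0.11 in the meristematic zone (adjusted p = 5.49e-10; 0.259% called). The zone difference was 2.24 on H2O2 and 1.28 on control medium, which differ by 0.96 (95% interval 0.65 to 1.27, adjusted p = 0.0685). The difference was largest at 3 h, where it was 1.65, against 0.60 at 1 h and 0.62 at 6 h. Over 37 alternatives its adjusted p ran from 0.0182, with the pool as a block, to 1, without the 3 h arrays, and it was called in 8. Without the outlying control arrays the value was 0.91 (adjusted p = 0.332).

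GT72B1, a glucosyltransferase that acts on xenobiotics and on lignin precursors, had the next smallest p among genes with a name. In the elongation zone it read 192 and 160 at 1 h, 425 and 392 at 3 h, and 333 and 446 at 6 h on H2O2, and from 80 to 146 on control medium. All 6 elongation arrays on H2O2 were above all 6 on control medium. In the meristematic zone it read from 4.02 to 21.2 on H2O2 with a median of 16.9, and had a median of 10.9 on control medium. The zone difference was 3.42 on H2O2 and 2.05 on control medium, which differ by 1.36 (95% interval 0.83 to 1.90, adjusted p = 0.172). It was called with 64 added to the signal (adjusted p = 0.00335) and in none of the other 36 alternatives, which include the one without the outlying control arrays (1.31, adjusted p = 0.565).

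GSTU25, a tau-class glutathione transferase, had a zone difference of 0.11 ± 0.19 on H2O2 (adjusted p = 0.675), while on control medium it was -0.95 (adjusted p = 0.000172). Its elongation arrays ranged from 1984 to 6045 on H2O2 and had a median of 1259 on control medium, and its meristematic medians were 4431 and 2950. The zones overlapped on H2O2. The difference between media was 1.06 (95% interval 0.50 to 1.61) with an adjusted p of 0.562, so it did not pass, and without the outlying control arrays it was 0.94. The glutaredoxin ROXY2 was at -0.65 on H2O2 and -1.49 on control medium (adjusted p = 0.858 for the difference). Unlike that of GSTU25, its zone difference was still called on H2O2 (adjusted p = 0.00366). It was not called after median centring or without the 1 h arrays. Among genes whose zone difference was less positive or more negative on H2O2, AT1G28600 had -0.38 and 0.90, SHI, of the SHORT INTERNODES family of zinc-finger regulators, had -0.05 and 0.62, and ARLA1A, a small GTPase of the ADP-ribosylation factor type, had -0.79 and -0.21. Their adjusted p for the difference were 0.172, 0.27 and 0.424.

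**Figure D4:**
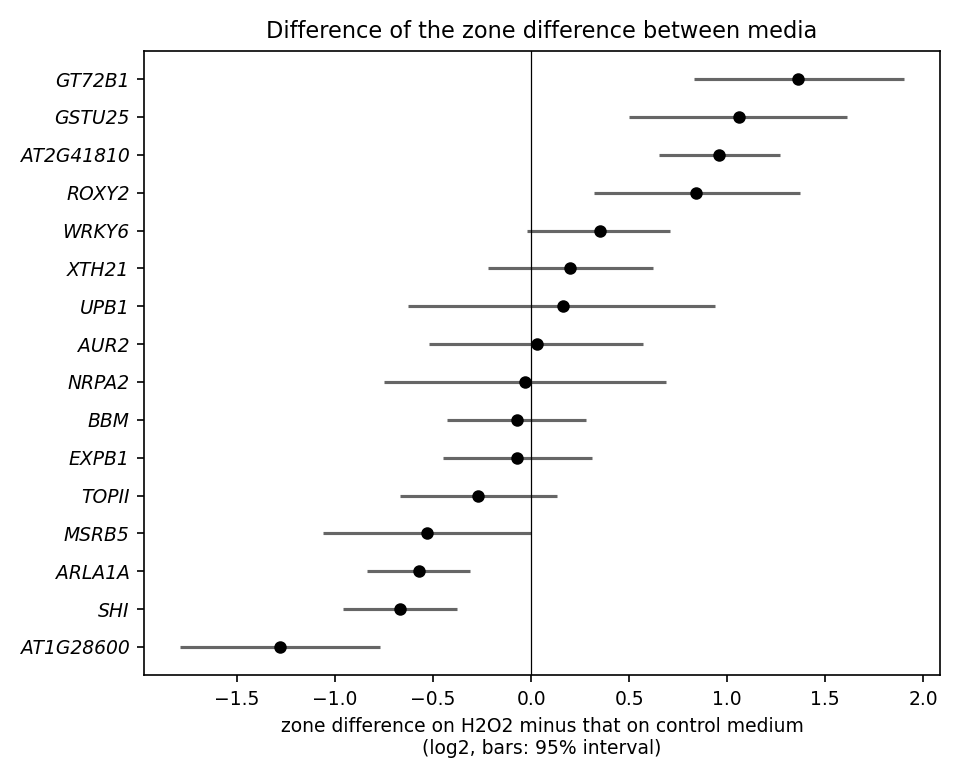
Zone difference on H2O2 minus zone difference on control medium (log2, mean of 1, 3 and 6 h) for 16 genes, with 95% intervals as bars, unadjusted for the number of probe sets. Marker genes such as UPB1, BBM and EXPB1 have intervals across 0, and GT72B1, GSTU25, AT2G41810 and ROXY2 lie to the right, although none of the 16 passed the adjusted test.

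Of the 1426 probe sets called on H2O2 and not on control medium, 1256 had the same sign on control medium. Called differences of opposite sign were found for 9 probe sets, of which 4 had a single gene: AT1G13470 (0.51 on H2O2 and -0.61 on control medium), AT4G23610 (-0.46 and 0.42), AT1G28040 (-0.48 and 0.36) and AT4G01130 (-0.32 and 0.36). All 9 were dim, with a mean signal of at most 15.5. None passed the test of the difference, and each of the 4 genes lost its call on H2O2 in 2 to 10 of 23 alternatives. Single left-out arrays ended the call of AT4G01130 (6 of 12 arrays), AT1G13470 (4) and AT4G23610 (2).

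Time on H2O2 was then examined. At 1 h 9660 probe sets were called between zones (42.5%), at 3 h 10070 (44.3%) and at 6 h 9714 (42.7%). Of 12171 called at any of these times, 7671 were called at all 3 in the same direction, and 13 were called in opposite directions at 2 times. The change of the zone difference from 1 h to 6 h was called for 8 probe sets (0.0352%), 5 toward the elongation zone (0.022%) and 3 toward the meristematic zone (0.0132%), and 1210 had an unadjusted p under 0.05. With the replicate number as a block 15 were called, and with the pool as a block 13. In a fit of only the arrays compared 0 were called. A fit without 1 array leaves 1 in its group, which widens the SE. A call lost in such a fit does not show that the call rested on that array. On control medium 1 was called for the same change (0.0044%), and 1 without the outlying arrays.

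UGT84A1, a glucosyltransferase of phenylpropanoids, changed most. On H2O2 its elongation signals were 13.5 and 11.8 at 1 h, 325 and 126 at 3 h, and 468 and 274 at 6 h, while its meristematic signals ranged from 1.77 to 13.2. The 2 zones were close at 1 h and far apart at 3 and 6 h. Its zone difference rose from 0.52 to 4.07, a change of 3.54 ± 0.58 (adjusted p = 0.0279), and on control medium the change was 1.97 (adjusted p = 0.611). The difference between these changes was 1.57 with a 95% interval of -0.14 to 3.28. Without the outlying control arrays the change on control medium was 2.72 and the difference 0.82 (-0.79 to 2.44). LEP had elongation signals of 251 and 245 at 1 h and of 944 and 1044 at 6 h, with 30.5 to 51.7 in the meristematic zone, and its zone difference rose by 1.82 ± 0.32 (adjusted p = 0.043; 0.25 on control medium). That of AT5G24570 rose by 2.37 ± 0.38 (adjusted p = 0.0279; 0.91 on control medium).

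In the other direction, AT5G39580 had elongation signals of 111 and 96.8 at 1 h and of 12.1 and 21.1 at 6 h, while the meristematic zone stayed between 13.5 and 34.6. Its zone difference fell by 2.29 ± 0.35 (adjusted p = 0.0237), and on control medium the change was -1.93. AT2G41190 went from 528 and 669 at 1 h to 166 and 131 at 6 h in the elongation zone, with a change of -1.87 ± 0.33 (adjusted p = 0.043) and of -1.16 on control medium. Of the 8 probe sets 7 had the same sign on control medium, and for none of these 7 did limma call the difference between media in the change (adjusted p = 0.999). Its 95% interval was 0.63 to 2.52 for LEP, 0.33 to 2.60 for AT5G24570 and -1.69 to 0.25 for AT2G41190. Without the outlying control arrays the change of LEP on control medium was -0.04, and the interval of the difference was 0.82 to 2.92 for LEP and -0.11 to 2.49 for AT5G24570. Each of these 5 genes lost its call with 1 added to the signal and in the fit of only the arrays compared. Each kept its direction in each alternative. The change ran from 2.41 to 4.32 for UGT84A1, 1.56 to 2.09 for LEP and 1.73 to 2.68 for AT5G24570. It ran from -3.29 to -1.24 for AT5G39580 and from -2.08 to -1.62 for AT2G41190.

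AT5G53320 was the exception among the 8. In the elongation zone on H2O2 it read 2.18 and 0.782 at 1 h, 51.4 and 29.6 at 3 h, and 44.6 and 54.5 at 6 h. On control medium the order was turned, with 22.9 and 30.6 at 1 h, 16.4 and 13.8 at 3 h, and 3.39 and 1.38 at 6 h. The meristematic zone was at or under 2.49 on all 12 arrays of both media, so the gene was dim and its level lay near the added 16. Its zone difference at 6 h was 1.97 ± 0.18 on H2O2 and 0.13 ± 0.18 on control medium, a difference of 1.84 ± 0.25 (adjusted p = 0.0118). It was the 1 probe set called at 6 h. The size depends on the added constant, from 0.77 with 64 added to 4.02 with 1 added. The change from 1 h to 6 h was 1.92 ± 0.25 on H2O2 and -1.24 ± 0.25 on control medium, and these differed by 3.16 ± 0.36 (adjusted p = 0.000588), the only one of 22746 probe sets called for this contrast (0.0044%), which was added after the values were seen. The difference between the changes was 3.29 without the outlying control arrays (adjusted p = 0.00618), and it was called in each of 25 alternatives, with values from 1.25 to 7.91. The change on H2O2 alone ran from 0.80 to 4.52 with the constant. The call at 6 h was lost in 9 of 16 alternatives, among them 7 of the 8 that leave out 1 array of 6 h (adjusted p from 0.00425 to 0.362 over all 16). It kept its sign in each of these.

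**Figure D5:**
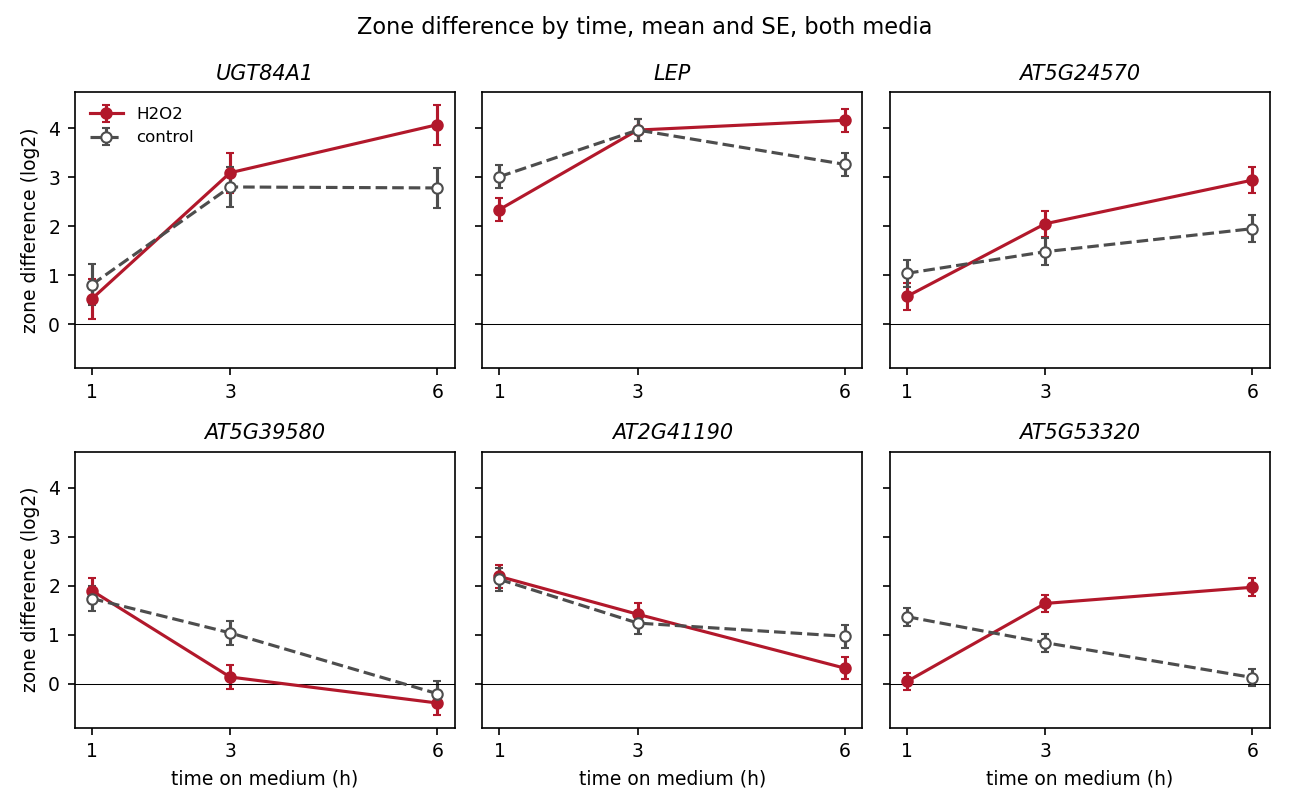
Zone difference (log2, elongation minus meristematic) by time on the medium for 6 genes called for the change from 1 h to 6 h on H2O2. Values on H2O2 are red and filled, those on control medium grey and open. Points are means from 2 arrays per zone and time. Bars are the SE of the limma fit, which shares its estimate of the spread over all 28 arrays. For 5 genes the change from 1 h to 6 h has the same sign on both media. That of LEP on control medium is small (0.25, and -0.04 without the outlying control arrays). For AT5G53320 the line rises on H2O2 and falls on control medium.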

How the data were processed

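The authors deposited linear intensity values, 1 signal per probe set and array, in a table for the whole series. Per the submitters' processing notes MAS5 and GCRMA were used, without saying which made these values; every array has the same trimmed mean, and quantiles differ between arrays. Of 22810 probe sets 64 controls were left out. Of the 22746 tested, 13513 had 1 gene in the platform annotation, 503 several and 8730 were not listed; 13436 were matched by gene ID to RefSeq's TAIR10.1 gene table, giving 13286 single genes, with the brightest probe set standing for a gene with several.

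All 28 arrays entered 1 limma fit (version 3.58.1, R 4.3.3) of log2(signal + 16) with a mean per group, an intensity trend, 14 residual and 5.64 prior degrees of freedom. Tests were 2-sided. Contrasts weight the times equally. The script was tested on simulated data. Arrays of the 2 zones that share medium, time and replicate number deviated together from their group means in 7 of 7 pairs (r from 0.13 to 0.644). The number was therefore used as a block in alternatives, where such arrays are called a pool. The labels do not say that both zones came from the same roots, and what the number marks was not tested. Alternatives also covered the added constant, scaling, a signal filter, the arrays fitted and each array left out. Leaving out 1 array leaves 1 in its group and lowers the precision, so calls lost there do not show reliance on that array.

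The comparison, the lists and the rule for naming genes were chosen with earlier results of these data known. Named genes were the extremes of each contrast, the markers and genes of opposite sign. Per list they were up to 4 called members with the largest difference and the member with the smallest p between media. For the zone difference on H2O2 the extremes came only from called genes whose zones did not overlap, so the rule set that trait. The 16 extremes with a name, the 10 smallest p between media and some list members were added after the values were seen. The contrasts of change over time on control medium were added then too. Of 38 lists 28 had a measured gene, 376 genes in all.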

Additional observations from a re-analysis of the deposited data

Results flagged for a closer look

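The zone difference changed between 1 h and 6 h on H2O2, by limma's test of that change, for UGT84A1 (3.54), AT5G24570 (2.37), LEP (1.82), AT5G53320 (1.92), AT5G39580 (-2.29) and AT2G41190 (-1.87), and for 2 probe sets without a single listed gene (1.92 and -1.90, adjusted p of 0.0237 and 0.043). The last of these was also the 1 probe set called for the same change on control medium, at -2.56 (adjusted p = 0.0049).

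AT5G53320 also differed between media, by 1.84 at 6 h and by 3.16 in its change from 1 h to 6 h. Every value of this gene came from signals of 54.5 or less. Groups of 2 arrays are too small for a test of single outlying arrays, so none was made.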

How the results depend on the processing

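Between zones on H2O2, 12842 probe sets were called, and 12221 to 12545 when 1 array was left out, 13110 when replicate numbers were blocked and 13332 when pools were. The same ranges were 12149 to 12642 on control medium, and 7614 to 8762 at 1 h, 8110 to 8978 at 3 h and 8072 to 8430 at 6 h on H2O2. Of 152 genes followed over the alternatives for the zone difference, 133 were called under each and 19 lost the call under at least 1. Median centring turned PRXR1 to 0.06, AT3G50990 to 0.09 and AT4G01130 to 0.02, since it shifts every difference upward. Without the 1 h arrays AT5G39580 was at -0.13.

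For the difference between media over all times, 0 as reported, 1 probe set was called with a mean signal of at least 50, with 1 or 64 added to the signal or without the 1 h arrays, and 2 were called with median centring, quantile normalisation or the pool as a block. Leaving out 1 array gave 0 to 1, with 1 without replicate 1 of the elongation zone on H2O2 at 1 h, replicate 2 of it at 6 h, or either meristematic control array of 6 h. At 1 h it was 0 to 1, with 1 without replicate 2 of the elongation control. At 3 h, 0 as reported, it was 1 with a mean signal of at least 50, 1 with 1 added and 1 with the pool as a block, and 0 to 2 without 1 array, with 2 without meristematic replicate 2 on H2O2. At 6 h, 1 as reported, it was 0 with a mean signal of at least 50, which leaves out the dim AT5G53320, 0 with 1 added, 0 in a fit of only the arrays compared, which has fewer samples, and 0 to 1 without 1 array.

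The change from 1 h to 6 h on H2O2, 8 as reported, was called for 5 probe sets with median centring, 5 with no intensity trend, 1 with 1 added, 0 in the fit of only the arrays compared, 15 with the replicate number and 13 with the pool as a block, and 0 to 7 without 1 array. The same change on control medium, 1 as reported, was called for 3 with 64 added, 0 in the fit of only the arrays compared and 0 to 4 without 1 array. It was 3 without elongation control replicate 1 of 1 h, 4 without meristematic control replicate 2 of 6 h, and 0 without elongation control replicate 2 of 1 h or of 6 h or meristematic control replicate 1 of 6 h. The difference between the 2 changes, 1 as reported, was 0 with a mean signal of at least 50, 2 with no intensity trend, 2 with the pool as a block, 2 without the outlying control arrays and 1 to 3 without 1 array, with 3 without meristematic control replicate 1 of 1 h. Where no cause is named here, the cause was not tested. The block changed no other count by over 1.5 times. Signals under the added 16 limit the dimmest genes, and 2 arrays per group limit the tests between media.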
